A study of Mus musculus with 26 samples.

Results

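Microglia with high levels of Hmox1, the inducible heme oxygenase, were examined in 12 libraries of sorted cells from mouse embryos. Microglia were barcodes with at least 500 genes, at most 20% mitochondrial unique molecular identifiers (UMIs, each standing for a captured RNA molecule) and at least 2 UMIs of Csf1r plus C1qa. A microglial cell was counted as Hmox1-high when it had at least 10 Hmox1 UMIs per 10000 UMIs, at most 1 UMI of the macrophage gene Ms4a7, fewer than 20 Spp1 UMIs per 10000 and fewer than 8 summed UMIs of the 6 cell-division genes Top2a, Mki67, Cenpf, Cenpe, Ube2c and Birc5. Of 34884 embryonic microglia, 969 met these limits, among 67847 kept barcodes in the 18 libraries of sorted cells of the whole series. Another 23614 microglia met the same limits with less Hmox1 and are called Hmox1-low. Members were selected on the measured UMIs of Hmox1 and of the other genes of the rule in each cell. Differences in level between Hmox1-high and Hmox1-low cells are therefore given as a description without a test. Tests were run of the share of members and of changes with treatment or age within members. Whether such a difference between Hmox1-high and Hmox1-low cells changed with treatment or age was also tested, and the selection enters all of these.

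Hmox1 cleaves heme into biliverdin, carbon monoxide and free iron. The iron is then stored in ferritin, built from Fth1 and Ftl1 chains, or exported through ferroportin, the product of Slc40a1. The transcription factor Nrf2 (gene Nfe2l2) activates Hmox1 together with genes that make glutathione, recycle thioredoxin and supply NADPH, while Bach1 represses many of the same genes until it binds heme. In adult tissues, macrophages that clear aged red blood cells are known for this combination of heme breakdown, iron export and antioxidant genes.

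The embryos were wild-type C57Bl/6N mice of mixed sex, whose dams received an intraperitoneal injection of saline or of poly(I:C), an RNA duplex that mimics viral infection and triggers maternal immune activation (MIA), at E12.5. Cells were taken at ages labelled E13 and E15, given as E13.5 and E15.5 in the study's methods, with 3 libraries in each of the 4 groups, from the prospective somatosensory cortex without its meninges. Embryos were pooled within a library, and cells were sorted as Cd11b+, Cx3cr1+ and Cd45 low, so this gate can have removed cells with high surface Cd45. The labels do not say how many litters each group holds, so p-values measure the spread between these libraries.

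The libraries held 280 to 6375 kept barcodes and 6160925 to 105751888 UMIs in them. E13 MIA replicate 1 had 3 Hmox1-high cells and was left out of comparisons of gene levels, which therefore rest on 11 libraries with 15 to 243 members each. Hmox1-high cells were shallower than Hmox1-low cells in 5 of the 6 E13 libraries, with median UMIs per cell of 1356 to 3827 in these 5 against 2955 to 8381. At E15 the medians were 7364 to 12411.5 against 8534 to 11197.5. Some libraries shared cell barcodes far more often than the other pairs did. E13 MIA replicate 2 shared 230 of its 375 kept barcodes (61.3%) with E15 MIA replicate 3, where they made up 15.6%, and 157 with E15 saline replicate 3. E13 saline replicate 1 and E13 MIA replicate 1 shared 67 barcodes, which were 23.9% of the latter. Of the 969 members, between 0 and 10 per library carried a barcode kept in more than 1 library of sorted cells. The cause of the sharing was not tested. Counts that moved without these barcodes are given beside the results.

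The genes that stood out beside Hmox1 included several whose promoters hold letters resembling the antioxidant response element, the sequence bound by Nrf2. The promoter windows of Srxn1, Gclm, Prdx1 and Txnrd1 are printed because they are the genes of the Nrf2 list among the 20 most raised whose windows held the motif, and were thus chosen after the search. Each window runs from 250 bases before to 50 after the annotated start, 5′ to 3′ on the gene's strand, from RefSeq on GRCm38.p6, and capitals mark the core motif TGACNNNGC or its reverse complement GCNNNGTCA.
Srxn1, chr2:152105274-152105573, plus strand: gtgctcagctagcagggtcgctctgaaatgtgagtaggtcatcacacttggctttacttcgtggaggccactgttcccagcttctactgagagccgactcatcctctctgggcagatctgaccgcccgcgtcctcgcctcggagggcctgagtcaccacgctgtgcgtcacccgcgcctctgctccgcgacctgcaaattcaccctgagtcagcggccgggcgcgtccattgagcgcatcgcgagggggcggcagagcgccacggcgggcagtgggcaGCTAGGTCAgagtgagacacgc
Gclm, chr3:122245307-122245606, plus strand: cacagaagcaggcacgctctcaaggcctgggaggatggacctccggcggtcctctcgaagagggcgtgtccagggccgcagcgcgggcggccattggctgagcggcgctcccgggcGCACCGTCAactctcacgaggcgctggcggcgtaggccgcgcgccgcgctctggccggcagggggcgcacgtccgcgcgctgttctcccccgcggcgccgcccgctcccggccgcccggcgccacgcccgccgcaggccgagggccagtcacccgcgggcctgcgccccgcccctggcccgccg
Prdx1, chr4:116685349-116685648, plus strand: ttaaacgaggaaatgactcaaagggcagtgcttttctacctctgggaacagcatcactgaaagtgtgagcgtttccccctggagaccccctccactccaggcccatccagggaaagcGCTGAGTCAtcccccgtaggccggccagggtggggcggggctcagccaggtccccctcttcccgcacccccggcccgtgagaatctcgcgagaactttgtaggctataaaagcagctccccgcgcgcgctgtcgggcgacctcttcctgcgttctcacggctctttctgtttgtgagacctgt
Txnrd1, chr10:82858956-82859255, plus strand: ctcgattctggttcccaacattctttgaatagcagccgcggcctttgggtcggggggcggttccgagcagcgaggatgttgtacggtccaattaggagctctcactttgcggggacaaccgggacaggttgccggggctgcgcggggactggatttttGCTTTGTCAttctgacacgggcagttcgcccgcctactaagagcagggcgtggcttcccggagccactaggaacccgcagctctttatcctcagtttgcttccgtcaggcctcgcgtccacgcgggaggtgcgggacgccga

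The match starts 28 bases after the start site in Srxn1 and 134, 133 and 92 bases before it in Gclm, Prdx1 and Txnrd1. Of the 20 genes named below as most raised, 13 had a promoter in the table used, and 6 of these 13 held the core motif in at least 1 window (Serpinb6a and Tnfaip2 being the others). Sqstm1, Fth1 and Ftl1 were among those searched that held no match. Slc40a1, Slc48a1, Gclc, Gsr, Lpl, Cyb5a and Ftl1-ps1 had no entry and were not searched. By window it was found in 6 of the 17 windows of these 13 genes and in 12.4% of all 32851 promoter windows. The longer form TGACTCAGC occurred in 0.454% of all windows and, among the named genes, in that of Prdx1. A match describes the letters in the window and does not show that a protein binds there.

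Hmox1-high cells made up a small share of microglia in every embryonic library. They were 1.96%, 2.17% and 3.90% of microglia in the E13 saline libraries (mean 2.67% ± 1.07, SD, n = 3) and 1.12%, 4.24% and 4.15% in the E13 MIA libraries (mean 3.17% ± 1.78, n = 3). At E15 they were 1.96%, 2.47% and 2.19% after saline (mean 2.21% ± 0.253, n = 3) and 2.99%, 2.13% and 2.42% after MIA (mean 2.51% ± 0.439, n = 3). The groups overlapped at both ages. The share after MIA minus that after saline was 0.496 percentage points at E13 (two-sided exact permutation test, p = 0.8) and 0.307 at E15 (exact p = 0.5), where 3 libraries against 3 cannot give a p below 0.1. Over both ages, with libraries permuted within age, it was 0.401 points (exact p = 0.555). E13 MIA replicate 2 decided the sign at E13, where the difference without it was -0.0379 points. Without barcodes kept in more than 1 library its share was 10.9% in place of 4.24%, and the difference at E13 was 2.66 points (exact p = 0.6). Adjusted for the 4 share comparisons made, these p-values were 0.74 to 0.8.

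**Figure D1:**
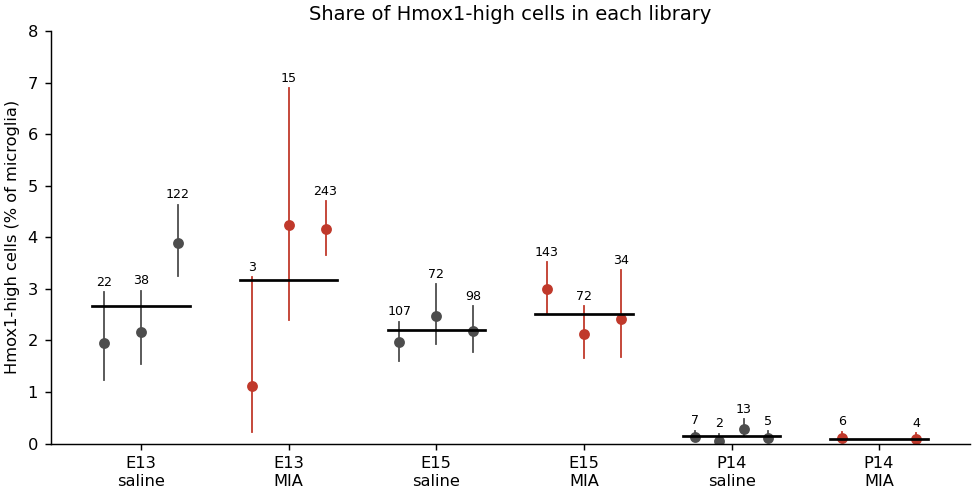
Hmox1-high cells as a percentage of microglia in each of the 12 embryonic libraries and, for comparison, in 6 libraries from postnatal day 14 (P14). Points are libraries (gray saline, red MIA) with exact Clopper-Pearson 95% intervals, which cover counting error only, numbers are counts of Hmox1-high cells, and black lines are group means. Embryonic shares lie between 1.12% and 4.24% in all 4 groups, and P14 shares between 0.0535% and 0.279%, where 25 of the 37 cells carried a barcode kept in more than 1 library.

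Whether the share changed with age depended on how Hmox1-high was defined. By the rule above the share at E15 minus that at E13 was -0.562 points (exact permutation within treatment, p = 0.38). With at least 20 Hmox1 UMIs per 10000 it was 0.453 points (exact p = 0.06), and with at least 5 Hmox1 UMIs in the cell it was 0.843 points (exact p = 0.005, the smallest this design allows). Under the last definition the E15 libraries held 1.34% to 2.70% and the E13 libraries 0.971% to 1.52%. A shallow cell needs few UMIs to reach 10 per 10000, and 301 of the 443 E13 members had fewer than 3000 UMIs against 100 of 526 at E15. The limit of 5 UMIs works the other way, since it is harder to reach in a shallow cell. The p-values of these alternative definitions were not adjusted for their number. When each cell was thinned to 3000 UMIs the difference was -0.241 points (exact p = 0.645). As a share of Hmox1-high plus Hmox1-low cells alone, it was -2.77 points (exact p = 0.015). This denominator leaves out dividing cells and cells past the limits on Ms4a7 and Spp1. It held 6294 of 12476 microglia at E13 and 18289 of 22408 at E15, so the denominator itself differed with age.

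Hmox1 itself, on which the members were chosen, had a median over libraries of 23.5 UMIs per 10000 in the median member, with single cells reaching 474 per 10000. Among cells with at least 3000 UMIs, 51 lay in a narrow bin just inside the limit and 64 just outside it (8 to 10 per 10000). Pooled levels of Gclm, the modifier subunit of the enzyme that starts glutathione synthesis, were 209 CPM (UMIs per 1000000 UMIs of the summed cells) inside and 139 outside. Slc40a1 was at 235 and 129 CPM, Fth1 at 18285 and 12602 CPM, and Srxn1, which repairs oxidized peroxiredoxins, at 21.2 and 10.8 CPM. Cells just outside the limit were above cells with no Hmox1 UMI, which had 35.6 CPM of Gclm and 3034 CPM of Fth1, so the limit lies within a gradient.

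Along this gradient the iron and redox genes differed in shape, given here at E15 because levels also differed with age. Gclm was higher in each successive bin, at 138 CPM from 8 to 10 Hmox1 UMIs per 10000, 353 from 20 to 50, 705 from 50 to 100 and 1537 at 100 and over (139 cells). Srxn1 stayed at 20.1 CPM or less up to 50 per 10000 and was at 106 and 259 CPM in the highest bins. Slc40a1 was at 117 CPM with no Hmox1 UMI, 133 from 8 to 10, 294 from 20 to 50, 653 from 50 to 100 and 865 at 100 and over. At E13, where these bins held 41, 33 and 35 cells, it was at 213, 563.5 and 581 CPM from 20 upward. Lpl, lipoprotein lipase, followed another course, at 82.9 CPM in cells with no Hmox1 UMI, 270 from 5 to 8 per 10000, 473 from 8 to 10 (51 cells) and between 491 and 601 in every higher bin. In the 3 libraries with at least 10 cells from 8 to 10 it was at 286 to 402 CPM. The microglial gene Tmem119 ran in the opposite direction, from 465 CPM with no Hmox1 UMI to 102 CPM at 100 and over, and P2ry12 from 2353 to 783 CPM.

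**Figure D2:**
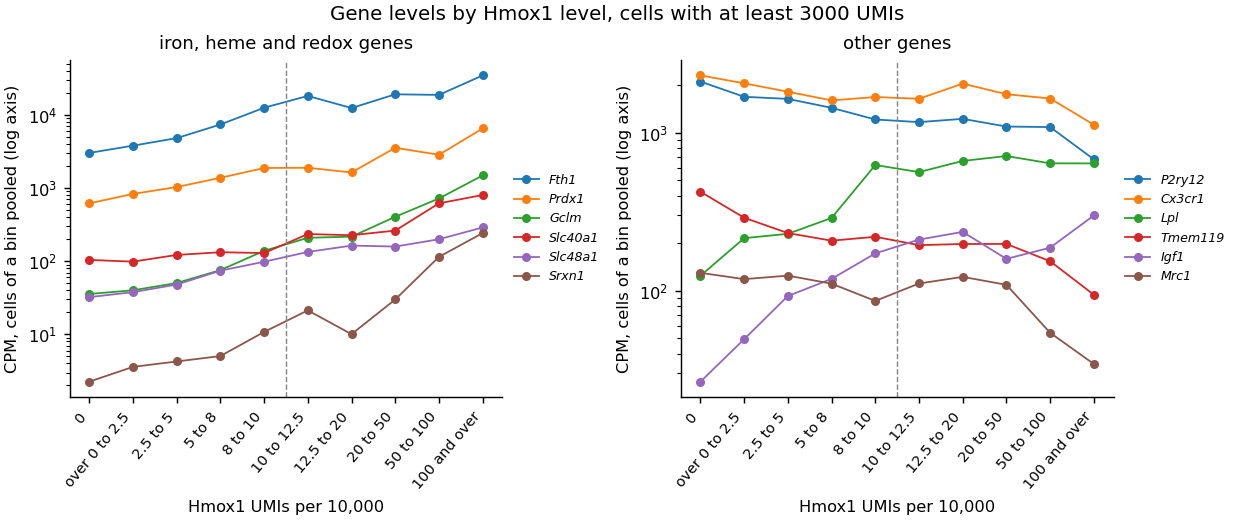
Pooled level (CPM, log axis) of 12 genes in microglia with at least 3000 UMIs, by Hmox1 UMIs per 10000 in the cell. Each point pools the cells of a bin over the 12 libraries, and the dashed line is the limit of 10 per 10000. Ages are pooled and the E15 share of cells differs between bins. Iron, heme and redox genes are higher toward the right, and P2ry12, Cx3cr1 and Tmem119 are lowest in the last bin.

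Members were compared with Hmox1-low cells of the same library by summed UMIs, as log2 ratios of CPM plus 1. The filter kept genes whose mean level over both kinds of cells was at least 10 CPM. Of 7463 genes past it, 66 (0.884%) were higher in all 11 libraries with a median of at least 1.5-fold and 85 (1.14%) were lower. These percentages describe the contrast that the rule used. The median log2 ratio over all genes tested was -0.11. For 27 genes (0.362%) the lowest library of Hmox1-high cells was above the highest library of Hmox1-low cells. Without E13 MIA replicate 2, 101 genes were higher and 135 lower. Without E13 saline replicate 3, 158 were lower. With only barcodes found in a single library, 48 were higher and 111 lower.

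Iron handling stood out at export and storage. Slc40a1 (ENSMUSG00000025993, chromosome 1, 45908068 to 45926523, mm10), the iron exporter and the other marker of these cells, was at 309, 307 and 239 CPM in the E13 saline libraries, 217 and 413 in E13 MIA replicates 2 and 3, 420, 516 and 788 in the E15 saline libraries and 552, 604 and 720 in the E15 MIA libraries. Hmox1-low cells had 53.1 to 142 CPM, so the groups did not overlap. The median log2 ratio was 2.23, with a range of 1.47 to 2.94. Fth1, the ferritin heavy chain, was at 6958 to 32372 CPM with a median of 21177, against 2777 to 4553 CPM in Hmox1-low cells, and its lowest library was E13 MIA replicate 2. Ftl1, the light chain, had a median log2 ratio of 1.59 and likewise did not overlap, at 10138 to 34259 against 7242 to 9843 CPM. Slc48a1, which carries heme out of the lysosome, was at 121 to 246 CPM against 31.1 to 45.9 CPM (median log2 ratio 2.30).

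Of 25 measured genes of heme and iron handling these 4 and Slc11a1, the phagosomal iron transporter, were higher, none was lower, and the median log2 ratio of the list was 0.01. Of the 2 biliverdin reductase genes, Blvrb was higher in 10 of 11 libraries (median log2 ratio 1.90), while Blvra had a ratio of 0.26. The constitutive heme oxygenase Hmox2 was at -0.23 and higher in 2 of 11. Bach1, the heme-sensing repressor, was at 0.49 and higher in 9 of 11. Genes of iron import were not among those raised. The transferrin receptor Tfrc had a median of 4.12 CPM in members and 7.03 CPM in Hmox1-low cells, and the ferritin-degradation receptor Ncoa4 had a ratio of -0.46. Heme synthesis genes were near 0, with 0.01 for Alas1 and -0.02 for Fech. Spic, the factor known from red-pulp macrophages of the spleen, and the hemoglobin-haptoglobin receptor Cd163 had medians of 0 CPM in members.

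Targets of Nrf2 formed the group with the most members higher. All 23 measured genes of this list had a median log2 ratio above 0, 12 were higher in every library by at least 1.5-fold, and the median of the list was 1.44. The filter used the mean of both kinds of cells, so a gene could pass through its level in members. Srxn1 did so, with a mean of 100.8 CPM in members and 3.445 CPM in Hmox1-low cells. The count and the median of the list carry this selection. Gclm (ENSMUSG00000028124) was at 570, 584 and 385 CPM in the E13 saline libraries, 231 and 735 in E13 MIA replicates 2 and 3, 918, 788 and 1025 after saline at E15 and 648, 902 and 654 after MIA at E15. Its levels in Hmox1-low cells were 25.3 to 46.0 CPM, and its median log2 ratio was 4.12. Srxn1 (ENSMUSG00000032802) had a median log2 ratio of 4.79, with 44.9 to 164 CPM in members and 1.95 to 5.27 in Hmox1-low cells. This was the largest among genes outside the rule that averaged at least 50 CPM in members and were higher in every library. With a pseudocount of 5 CPM in place of 1 its ratio was 3.62. Both genes were separated from Hmox1-low cells in every library.

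The remaining Nrf2 targets covered the main antioxidant routes. Txnrd1, thioredoxin reductase, had a median log2 ratio of 2.08 and levels of 160 to 567 CPM against 41.6 to 97.9, without overlap. Gsr, glutathione reductase, was at 2.00 and Gclc, the catalytic partner of Gclm, at 1.44, neither with overlap. Prdx1, a peroxiredoxin, was at 2.16 but overlapped, since its lowest library of members, E13 MIA replicate 2, had 978 CPM and the highest library of Hmox1-low cells, E13 MIA replicate 3, had 1144 CPM. Enzymes that supply NADPH were G6pdx (1.31) and Pgd (1.19), and Me1 had 3.67 and was higher in 10 of 11. Slc7a11, the cystine importer, was at 3.93 and higher in 10 of 11, with 23.7 CPM in the median library of members and 0.489 in Hmox1-low cells. Sqstm1, an autophagy receptor, was at 2.16 and did not overlap. The regulators themselves differed little, with a median log2 ratio of 0.01 for Nfe2l2 and 0.23 for Keap1, which targets Nrf2 for degradation.

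**Figure D3:**
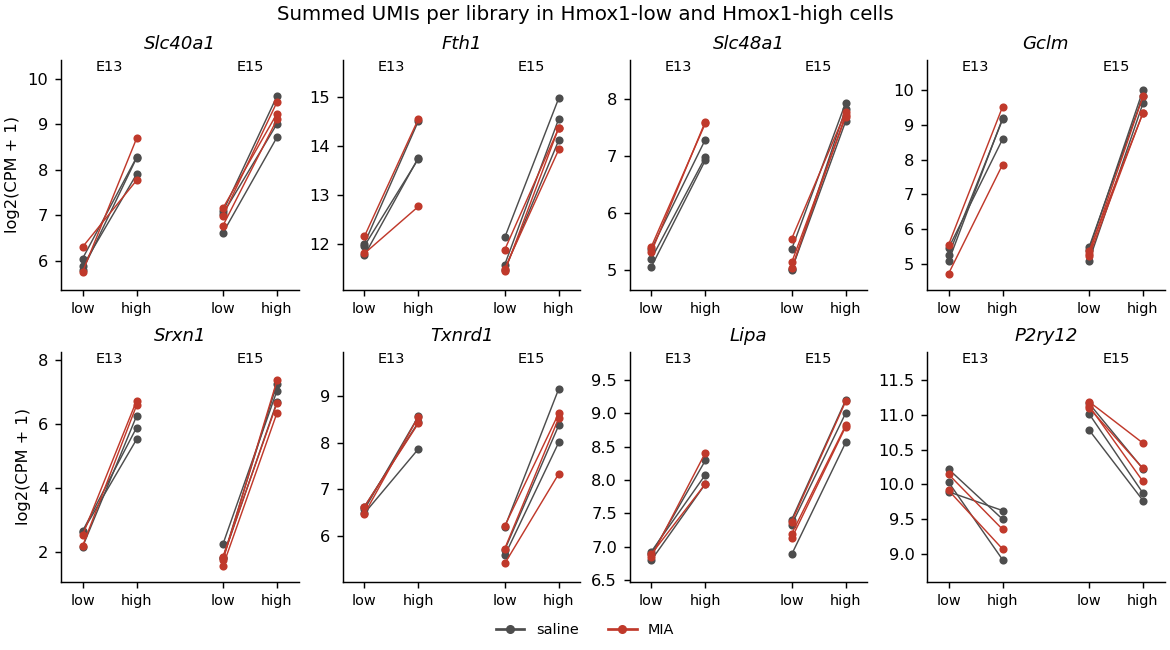
Level of 8 genes as log2(CPM + 1) in Hmox1-low and Hmox1-high cells of the 11 libraries, at E13 on the left and E15 on the right of each panel. Lines join the cells of a library (gray saline, red MIA). Slc40a1, Fth1, Slc48a1, Gclm, Srxn1, Txnrd1 and Lipa are higher and P2ry12 is lower in the Hmox1-high cells of every library.

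Outside these lists the most raised genes included enzymes of lipid handling. Lpl was at 422 to 1031 CPM in members against 89.8 to 468 CPM in Hmox1-low cells (median log2 ratio 1.75), overlapping because Hmox1-low cells at E13 had more of it. Lipa, the lysosomal acid lipase, had a ratio of 1.62 with no overlap, at 244 to 585 against 110 to 169 CPM. Plin2, a coat protein of lipid droplets, was at 1.10, and Nceh1, a neutral cholesterol ester hydrolase, at 1.40. Of 16 genes of the LXR and lipid list 3 were higher (Lpl, Plin2, Fabp3) and none lower, with a median of 0.10. Apoe had 0.09, and Abca1 had -0.05. Of 28 lysosome and efferocytosis genes only Lipa was higher, and the median was 0.03. The other named genes were Rnf128 (1.65), Cyb5a (1.53), Tnfaip2 (1.51), Serpinb6a (1.40), Creg1 (1.39) and Ftl1-ps1 (1.78), whose reads may come from its near copy Ftl1.

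The genes of axon tract microglia, a phagocytic state of the perinatal brain, were partly shared. Lpl, Plin2, Anxa5 and Cd9 were higher among 15 measured genes, with a list median of 0.77. Lgals3 had a median log2 ratio of 3.78 and Igf1 of 2.25, each higher in 10 of 11 libraries. Lgals3 UMIs were found in 33.98% of members with at least 3000 UMIs and in 5.18% of such Hmox1-low cells. After thinning to 3000 UMIs the shares were 21.7% and 1.84%, beside 0.979% of barcodes that were not microglia. Spp1, the usual leading gene of that state, was limited by the rule. Among glycolysis and hypoxia genes 4 of 18 were higher, Aldoa (1.25), Pkm, Bnip3 and Slc16a3, with a median of 0.36.

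Hspa1a, an inducible heat-shock chaperone, was found in a minority of members. It was at 43.5 CPM in the median library of members and 0.507 in Hmox1-low cells, with 0 in E13 MIA replicate 2, 3.59 in E13 saline replicate 3 and 196.5 in E13 saline replicate 2. Its UMIs were in 13.2% of members with at least 3000 UMIs and 0.652% of such Hmox1-low cells, and its near copy Hspa1b cannot be told apart by such reads. In the 51 cells just inside the limit Hspa1a was at 0 CPM, and at 100 and over it was at 199. Atf3, a stress-induced factor, had a ratio of 2.62 and was higher in 10 of 11. Of 16 measured genes of dissociation and immediate early response only Klf6 was higher (0.84) and the list median was 0.28, while the summed list was at 634 to 1792 CPM in members and 503 to 2042 CPM in Hmox1-low cells and was higher in members in 10 of 11 libraries. Its part in the Hmox1-high profile was not tested.

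Microglial identity genes were present at lower levels. All 18 measured homeostatic genes but Tyrobp had a median log2 ratio below 0, with a list median of -0.42, and 2 were lower in every library by at least 1.5-fold, P2ry12 and Siglech. P2ry12, the purinergic receptor, was at 482 to 1542 CPM in members and 949 to 2333 CPM in Hmox1-low cells (median log2 ratio -0.87). Its UMIs were found in 93.7% of members with at least 3000 UMIs, against 20.1% of barcodes that were not microglia. Sall1, a factor that defines microglia in the brain, was at 117.6 CPM in the median library of members and 152 CPM in Hmox1-low cells. Among the 10 genes most lowered were also the chemokine receptor Ccr1 (-1.44, with 0 CPM in the lowest library of members), the fructose transporter Slc2a5 (-0.99), Slc12a9 (-0.91) and Fchsd2 (-1.06).

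No measured gene of border macrophages, neurons or endothelium was counted as higher in members, while globin genes were uneven between libraries. Of 18 border-macrophage genes 10 passed the filter, none was higher and Ccr1 was lower. Their summed level was 1386 to 2953 CPM in members and 1614 to 2430 CPM in Hmox1-low cells, and members were higher in 4 of 11 libraries. Mrc1 was at 85.3 CPM in the median library of members and 126 CPM in Hmox1-low cells, and Cd163 was at 0 CPM in every library of members. None of the 16 blood myeloid genes passed the filter, with sums of 2.69 to 27.2 CPM. Globin genes, which mark red blood cells and free RNA from them, summed to 36.9 to 3357 CPM in members and 11.7 to 4160 in Hmox1-low cells and were higher in members in 7 of 11 libraries. All 6 globin genes past the filter had a median log2 ratio above 0, with a list median of 1.00, and none was higher in every library. The sums were 3357 against 11.7 CPM in E13 MIA replicate 2 and 2376.5 against 357 CPM in E13 saline replicate 1, and 501 against 3670 CPM in E13 saline replicate 2. The 2 measured erythroid genes had a median of -0.45. Of 8 genes of neurons and their progenitors Nfia and Nfib were lower and none was higher, with a median of -0.62, and the 1 endothelial gene past the filter had -0.45. The globin part in the Hmox1-high profile was not tested. By doublet score 31 of 969 members and 942 of 23614 Hmox1-low cells were among the barcodes marked.

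**Figure D4:**
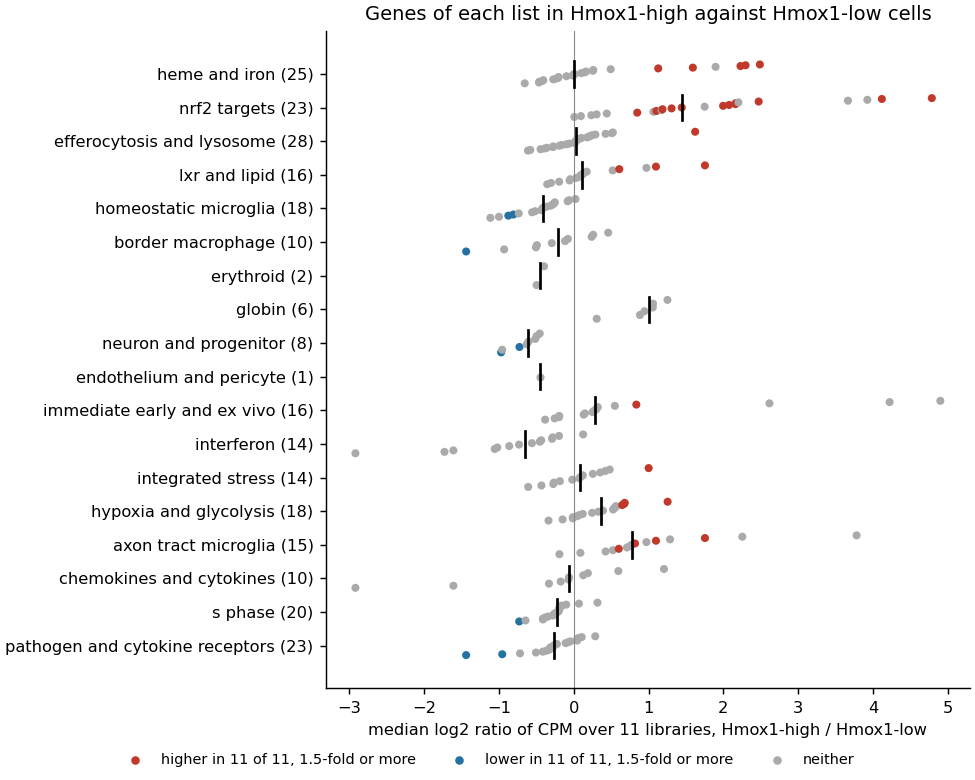
Median log2 ratio of CPM in Hmox1-high against Hmox1-low cells over 11 libraries for each gene past the filter, by gene list (number of genes in parentheses). Red and blue points are genes higher or lower in all 11 libraries by at least 1.5-fold, gray points the others, and black bars list medians. Nrf2 targets lie furthest to the right as a group with a median of 1.44, and homeostatic genes lie mostly left of 0.

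No interferon or chemokine gene was counted as higher or lower. Of 14 measured interferon genes 1 had a median log2 ratio above 0, the list median was -0.65, and the summed list was higher in members in 3 of 11 libraries. Of 10 chemokine and cytokine genes none was called, and the median was -0.07. Ccl4 had a ratio of 1.21 and was higher in 9 of 11 libraries, and Ccl3 had 0.19 and was higher in 7 of 11. After thinning to 3000 UMIs, Ccl4 UMIs were found in 15.1% of members and 5.565% of Hmox1-low cells, and Ccl3 UMIs in 31.7% and 19.6%. Cells with at least 20 UMIs of Ccl3 plus Ccl4 per 10000 made up 41 of the 969 members (4.23%) and 561 of the 23614 Hmox1-low cells (2.38%), with the higher share in members in 10 of 12 libraries. Single libraries held 0 to 9 such members, and in E15 MIA replicate 1 the shares were 5.594% and 5.549%. Pooled Gclm was 651 CPM in the 41 members and 33.4 CPM in the 561 Hmox1-low cells. Of 23 receptors for pathogens and cytokines 2 were lower, among them Ccr1. Among 14 integrated stress genes Cebpb was higher (1.00).

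Detection in single cells gave the same order. After thinning to 3000 UMIs, Gclm UMIs were found in 68.0% of 568 members, 10.7% of 19030 Hmox1-low cells and 12.6% of 1022 barcodes that were not microglia, so the share in Hmox1-low cells was not above that of the other barcodes, which are themselves cells that can make Gclm. Slc40a1 UMIs were found in 54.9%, 25.02% and 1.76% of these cells, and before thinning in 82.6%, 56.7% and 3.13%. Hmox1-low cells thus had Slc40a1 above the level of these barcodes, and members had more.

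High Hmox1 outside the limits of the rule went with the same iron and redox genes. Among cells with at least 4 Ms4a7 UMIs, which is typical of border macrophages, 41 had at least 10 Hmox1 UMIs per 10000, and their pooled Gclm was 696 CPM against 42.7 in the 708 others. Their Slc40a1 was 1159 against 213 CPM, and Mrc1 was 1020 against 1060 CPM. In dividing microglia, 238 cells with high Hmox1 had 766 CPM of Gclm and 400 CPM of Slc40a1, and the 8417 others had 44.0 and 63.1 CPM. In 45 Spp1-high cells Gclm was 237 CPM, and in the 404 others it was 42.0 CPM.

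In expression space Hmox1-high cells lay near each other. Among the 20 nearest neighbors of members, found without the genes of the rule in 29404 microglia of at least 3000 UMIs, 33.2% were members, against 0.8% of the neighbors of Hmox1-low cells and 1.93% of all these cells. In the single libraries this share was 5.00% to 41.6%, and it was lowest in E13 MIA replicate 2, with 4 such members. Shallow members carried less of the profile at E13. Their pooled Gclm was 160 CPM under 3000 UMIs (301 cells) and 688 CPM at 3000 UMIs and over (142 cells), against 48.7 and 40.8 CPM in Hmox1-low cells of these depths. At E15 the values were 558 CPM (100 cells) and 834 CPM (426 cells). Slc40a1 at E13 was 155 CPM in shallow and 385 CPM in deeper members, and Fth1 4880 and 22825 CPM.

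The response of these cells to MIA was tested on the summed counts of members in the 11 libraries (edgeR, quasi-likelihood test, 4 groups in the model, Benjamini-Hochberg adjustment over 8238 genes). At E15 no gene passed an adjusted p of 0.05 (0.0% higher and 0.0% lower), 99 genes had an unadjusted p under 0.05 and DESeq2 called 0. At E13 none passed either, with 149 genes unadjusted and 0 by DESeq2, and the difference between the responses at E15 and E13 gave 0, with 120 unadjusted and 0 by DESeq2. Each of these unadjusted counts is below a share of 0.05 of the 8238 genes, the share such a limit passes where nothing differs. With the replicate number as a block within age, 6 genes passed at E15 (Cxcl10, Hbb-bt, Hbb-bs, Mt3, Egr1 and Hbb-y), 3 at E13 (Hbb-y, Hba-x and Xist, which is transcribed in female cells) and 3 for the difference (Hbb-bt, Mt3 and Xist). These genes are named after their values were seen, and E13 held 2 complete pairs. Gclm had a log2 change of -0.28 ± 0.28 (SE) at E15 (edgeR adjusted p = 1.00), Slc40a1 0.15 ± 0.25, Srxn1 -0.10 ± 0.26 and Fth1 -0.35 ± 0.32. The median over the 24 tested Nrf2 targets was -0.14, and over 26 heme and iron genes 0.05, beside 0.01 over all genes.

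The smallest p-values at E15 belonged to the hemoglobin gene Hbb-bt, with a log2 change of -3.86 ± 0.69 (edgeR adjusted p = 0.0709), and to Hbb-bs, Egr1, Mt3 and Cxcl10, none of which passed. Hbb-bt was at 48.1, 198.5 and 206 CPM in members after saline and 14.8, 3.46 and 7.31 CPM after MIA. Hbb-bt and Hbb-bs are near copies, and Hmox1-low cells showed 21.5, 680.5 and 111 CPM of Hbb-bt after saline and 6.97, 7.72 and 2.92 CPM after MIA, so the same order was present outside the members. Egr1 was at 75.2 CPM in members and 75.5 CPM in Hmox1-low cells of E15 MIA replicate 1 and at most 15.6 CPM in members of every other library. Without barcodes kept in more than 1 library these 5 genes passed, with an adjusted p of 0.00217 for Hbb-bt. At E13 the genes of smallest p were Mbp, Actr8, Elmod3, Isg15 and 1110034G24Rik, and none passed. Isg15, an interferon-induced gene, was at 0 and 35.9 CPM in the E13 MIA libraries and 0, 5.38 and 5.39 CPM after saline, so 1 library carried its difference. For the difference between ages they were Hbb-bt, Ifit3, Slc46a3, Isg15 and Mgst2.

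Whether members responded to MIA differently from Hmox1-low cells was tested at E15 as an interaction over 10077 genes, with the library as a block. For 1 gene (0.00992%), the embryonic globin Hbb-y, the log2 change after MIA was higher in members, and for 6 genes (0.0595%), Ifit1, Ccl5, Mt3, Ifit3, Lgals3 and Nfib, it was lower. Lgals3 encodes galectin-3, which binds glycans on damaged lysosomes. Lgals3 was at 324, 238 and 82.3 CPM in members after saline and 154, 149 and 84.0 CPM after MIA, which overlap, and at 4.43 to 8.48 against 9.23 to 19.4 CPM in Hmox1-low cells. Its difference was -1.65 ± 0.27 (edgeR adjusted p = 0.00111). Single libraries set several of the others, since Ifit1 was at 42.5 CPM in members of E15 saline replicate 2 and at most 2.06 CPM in the other E15 libraries, and Ccl5 at 27.6 CPM in the same library and at most 0.643 CPM elsewhere. Ifit3 in members was high in E15 saline replicates 2 and 3 (74.1 and 31.9 CPM) and at 2.31 to 7.72 CPM after MIA. DESeq2 called 0, and without E15 MIA replicate 1 edgeR also called 0, while without barcodes kept in more than 1 library 11 genes passed. Leaving out one of the other libraries gave 4 to 39 calls, the latter without E13 MIA replicate 2. In E15 MIA replicate 1 Fos was at 63.0 CPM in members and 90.4 CPM in Hmox1-low cells, beside at most 10.96 CPM in members of any other library.

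Age gave the clearest differences among members. Over both treatments, 199 genes (2.42%) were higher and 249 (3.02%) lower at E15 than at E13 (edgeR, 8238 genes), and within saline 20 (0.243%) and 48 (0.583%). Genes of the rule, whose levels the choice of members limits, were 9 of these 448 calls (Hmox1, Spp1, C1qa, Top2a, Mki67, Cenpf, Cenpe, Ube2c and Birc5) and 3 of the 68 within saline (Top2a, Mki67 and Cenpe), which leaves 197 higher and 242 lower over both treatments. Without barcodes kept in more than 1 library 148 were higher and 234 lower, and within saline 26 and 72. DESeq2 called 242 genes (2.94%) over both treatments and 37 (0.449%) within saline. The 68 calls within saline were 4 without E15 saline replicate 2, 6 without E15 saline replicate 3, 14 without E13 saline replicate 3, 21 without E13 saline replicate 2 and 38 without E15 MIA replicate 2, and 3 of the 65 outside the rule passed whichever library was left out. Within saline the genes of largest change were lower for Hbb-y, Cdc6, Ccne1, Ccl2, Hist1h2ap, Nusap1, Ccne2, Cenpk, Mms22l, Prc1, Uhrf1, Pclaf, Cdca8, Rad51ap1, Kif20b and Hells and higher for Ifit3, Sirt6, Pmp22 and Nradd, and Hells was the one that passed whichever library was left out. Genes of DNA replication fell. Of 20 S-phase genes 19 were lower, with a list median of -1.64, beside 0.02 over all genes. Mcm5, a subunit of the replicative helicase, changed by -1.88 ± 0.29 (adjusted p = 0.000418, edgeR) and Pcna by -1.19 ± 0.20. Hells, a chromatin remodeler of dividing cells, was at 40.8 to 98.8 CPM in members at E13 and 9.002 to 22.8 CPM at E15, without overlap. The rule limited genes of mitosis but not of S phase, and of the same 20 genes 0 passed in the test of whether the age change differed between members and Hmox1-low cells (interaction median -0.15). The limit of 8 summed cell-division UMIs was not scaled to depth. Median UMIs per member were 1611.5 at E13 and 10148.5 at E15 (medians over libraries), so the limit was looser per UMI at E13.

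Homeostatic microglial genes rose with age in members. Of 18, 11 were higher, none was lower and the median was 0.68. P2ry12 rose by 0.98 ± 0.17 (adjusted p = 0.000970, edgeR), from 482 to 787 CPM in the 5 E13 libraries to 870 to 1542 CPM at E15, without overlap. Among the others that passed were Gpr34, Olfml3, C1qb, C1qc, Crybb1, Selplg, Tyrobp, Sparc and Trem2. Of 30 lysosome and efferocytosis genes 11 rose, among them Ctsd (0.95 ± 0.16) and Lamp1 (0.82 ± 0.16). In Hmox1-low cells of the 11 libraries, homeostatic genes summed to 22240 to 24154 CPM at E13 and 33407 to 43260 CPM at E15. Their lysosome genes summed to 20083 to 22269 and 25834 to 34345 CPM, so these rises were not limited to members. In the test of whether the age change differed from Hmox1-low cells, the lysosome genes Ctsz and Ctsd passed of 31, with a median of 0.06. The embryonic globins Hbb-y (-5.95 ± 1.17) and Hba-x were lower, and Hbb-y in members ranged from 1.80 to 802 CPM at E13. The further genes of largest change were mostly cell-cycle genes, all lower (E2f8, Ccnf, Nusap1, Shcbp1, Hmmr, Kif15, Pimreg, Cdc20, Cdc6, Hist1h2ap, Ccne1, Cep55, Aurka and Lrr1), and Klf4, Clec4a1, Dusp27 and Gm27010, which were higher. Of these 20 genes, Hist1h2ap was the one that passed whichever library was left out. The part of the unscaled limit on cell-division UMIs in the cell-cycle genes was not tested.

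The RNA of the iron exporter Slc40a1 rose with age in members. It changed by 1.03 ± 0.20 (adjusted p = 0.00271, edgeR), with 217 to 413 CPM at E13 and 420 to 788 CPM at E15, and its largest adjusted p with any library left out was 0.0145 (0.0166 after thinning every cell to 3000 UMIs). Hmox1-low cells of these libraries had 53.1 to 78.0 CPM at E13 and 97.0 to 142 CPM at E15, so the difference with age was not limited to members. Ftl1 (0.75 ± 0.19), Trf, the iron carrier transferrin, and Bach1 were also higher, and Slc39a14, an importer of iron and zinc, was lower, among 26 tested. Each of these 4 lost its call when some library was left out, and the change of Slc39a14 ranged from -1.44 to 2.06. Of 24 Nrf2 targets Srxn1 (0.76 ± 0.22), Gclm (0.74 ± 0.22), Gclc and Sqstm1 were higher, and each of these 4 lost its call when some library was left out. Members also held more Hmox1 at E15, with library medians of 25.45 to 67.35 UMIs per 10000 against 14.01 to 21.58 at E13. Slc40a1 and Gclm were higher where Hmox1 was higher, and the part of Hmox1 in these age changes was not tested. The call count over all genes rested most on E13 MIA replicate 3, the library with the most members, without which 98 genes passed. It was 248 to 298 without E13 saline replicate 2 or 3, E15 saline replicate 2 or E15 MIA replicate 1 or 2. Without it 4 of the 19 S-phase genes, among them Mcm5 and not Hells, 7 of the 11 homeostatic genes and 8 of the 11 lysosome genes still passed. Without barcodes kept in more than 1 library 19 of the 19 S-phase genes still passed, 6 of the 11 homeostatic genes, 5 of the 11 lysosome genes, 3 of the 5 heme and iron genes and 2 of the 4 Nrf2 targets. After thinning to 3000 UMIs 222 of the 439 genes called outside the rule still passed. They held 15 S-phase, 11 homeostatic, 10 lysosome and 3 heme and iron genes and 1 Nrf2 target. Within saline 23 of 65 still passed after thinning. Slc40a1, the heme and iron gene called there, was not among them, nor did it pass without shared barcodes.

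The ratio of Hmox1-high to Hmox1-low cells was larger at E15 for redox genes. Members at E15 also held more Hmox1, on which they were chosen, and its part in these ratios was not tested. The interaction of state and age called 55 genes with a higher ratio of Hmox1-high to Hmox1-low cells at E15 (0.546%) and 13 with a lower one (0.129%) among 10077, and DESeq2 called 109 (1.08%). Hmox1 and Ube2c, which the rule used, were 2 of these 68, which leaves 54 and 12. Without barcodes kept in more than 1 library 47 of these 66 still passed, the 7 Nrf2 targets named next among them. Of 26 Nrf2 targets 7 were among the former, Srxn1 (1.53 ± 0.24, edgeR adjusted p = 0.00020), Gclm, Txn1, Prdx1, Txnrd1, Gsr (1.01 ± 0.16) and Gclc (1.01 ± 0.16), and the list median was 0.46. In heme and iron handling Ftl1 (0.81 ± 0.12), Fth1 (0.90 ± 0.15) and Slc48a1 (0.57 ± 0.14) passed of 28, while Slc40a1 had -0.10 ± 0.16, with a median log2 ratio of 2.23 at E13 and 2.22 at E15. Lpl had 1.26 ± 0.16, where Hmox1-low cells had 354 to 468 CPM at E13 and 89.8 to 155.5 CPM at E15, while the change of Lpl with age within members was -0.41 ± 0.20 and did not pass (edgeR adjusted p = 0.277). Of 19 glycolysis and hypoxia genes 8 had a higher ratio at E15, among them Pgk1, Eno1 and Aldoa. Homeostatic genes gave 0 of 18, with a median of -0.06. The remaining genes of largest difference were higher at E15 for Fabp5, Ly9, Angptl4, Lgals1, Fabp3, Cstb and Mt1 and lower for Mfap2, Ccl2, Ccdc163, Ccl12, Adgrg1, Atad5, Pid1, Sox11 and Numb. Fabp5, a fatty acid carrier, had 1.54 ± 0.27 (edgeR adjusted p = 0.000918), and it, Lpl, Lgals1, Gsr, Gclc, Cstb and Mt1 passed whichever library was left out. Ccl2, Ccl12, Sox11 and Fabp3 each lost their call when some library was left out.

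The members of the 2 ages also differed in Hmox1 and depth. Hmox1 was at 3397 to 7878 CPM in E13 members and 6048 to 10464 CPM at E15. The median member of a library had 14.01 to 21.58 Hmox1 UMIs per 10000 at E13 and 25.45 to 67.35 at E15, without overlap. In UMIs these were 2 to 53 (median over libraries 3) and 21.5 to 63.5 (median 49.25). After every cell was thinned to 3000 UMIs and the rule applied again, 62 genes passed, and of the 7 Nrf2 targets 4 did. Srxn1 then had 1.04 with an adjusted p of 0.297, Gclc 0.81 with 0.0729 and Gsr 0.90 with 0.0181 (edgeR). Without E13 MIA replicate 2, whose log2 ratios were the smallest for Fth1, Prdx1 and Gsr (0.96, 0.21 and 0.38), 354 genes passed, and without E13 saline replicate 3, 39 passed. Without E13 saline replicate 2, E13 MIA replicate 3 or E15 MIA replicate 1 there were 121 to 137. The chemokine Ccl12 differed the other way (-1.76 ± 0.26), at 25.6 to 56.5 CPM in E15 members and 104 to 215 CPM in Hmox1-low cells, while at E13 the log2 ratio ranged from -1.37 to 0.93. After thinning its value was -0.09 (adjusted p = 0.952, edgeR).

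**Figure D5:**
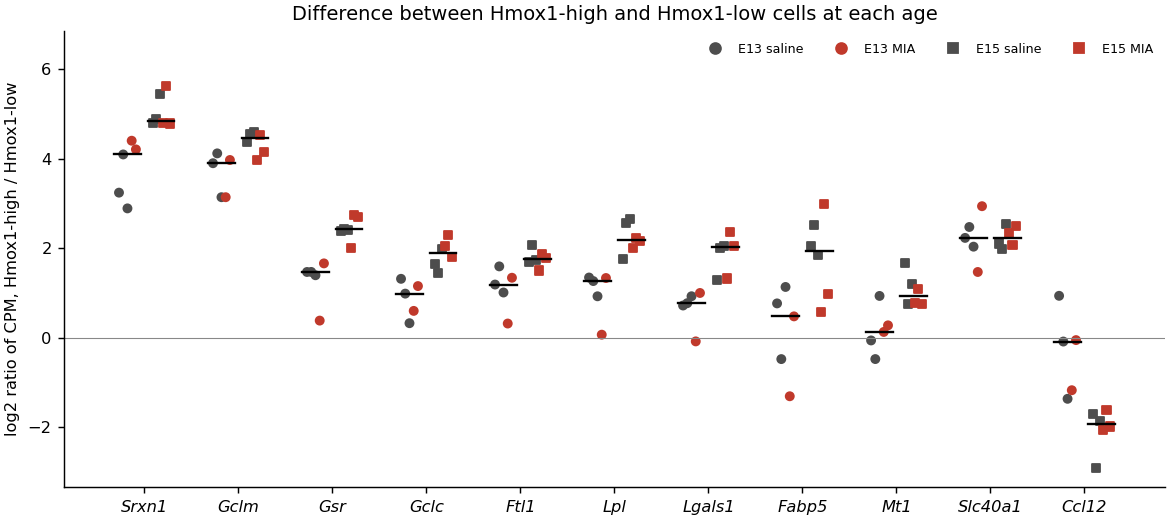
Log2 ratio of CPM between Hmox1-high and Hmox1-low cells in each library at E13 (circles) and E15 (squares), gray after saline and red after MIA, with black lines at the median of an age. Gsr and Gclc have larger ratios at E15, Slc40a1 has 2.23 and 2.22, and Ccl12 lies below 0 in every E15 library.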

How the data were processed

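Cells of the 12 sorted E13 and E15 libraries were profiled with 10x Genomics 3′ v3.1 chemistry. The deposited files hold UMI counts per gene and barcode that the authors made against mm10 with Cell Ranger, version 3.1.0 in the submitters' processing notes and another in the study's methods. Filters on cells are those given with the rule. No column of other samples was set aside, and the libraries of nuclei in the series were not used here. The 6 P14 libraries serve only as a comparison.

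The members, the gene lists and the tests were chosen with earlier results of these data known. UMIs of members and of Hmox1-low cells were summed per library. Levels are CPM of these sums, with a pseudocount of 1 CPM for ratios. Members were compared with Hmox1-low cells by description. A gene was counted as higher or lower when all 11 libraries with at least 10 members had that direction and the median was at least 1.5-fold. This was done among genes of at least 10 CPM in the mean of members and Hmox1-low cells. Differences by treatment and age were tested with edgeR 4.0.16 (R 4.3.3; TMM factors, filterByExpr, quasi-likelihood test, Benjamini-Hochberg threshold 0.05), with the 4 groups in 1 model. Interactions with the state used 2 sums per library and the library as a block. DESeq2 1.42.0 was an alternative. The tests of MIA at E15, of age over both treatments and of state by age were checked on simulated data. False calls were rare there, and the tests of MIA at E15 and of state by age missed most of the changed genes. The simulated spread was fixed and not taken from these libraries, and the other tests were not simulated. Shares were compared with exact permutation tests over libraries, and intervals are exact Clopper-Pearson intervals (SciPy 1.17.1) for counting error only. Doublet scores were computed with Scanpy 1.11.5, and the highest scores, 0.8% per 1000 barcodes, were marked and kept.

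Named genes are the heme and iron list as needed, the 20 most raised and 10 most lowered genes of at least 50 CPM with 1 direction in every library, up to 20 genes past a threshold by size of change (or the 5 of smallest p where fewer than 5 passed), and 2 to 4 genes per list. Alternatives were other limits on Hmox1, thinning to 3000 UMIs, removal of doublet scores or shared barcodes, other normalization, no filter, each library left out, and a term for the replicate number. Thinning of the gene tests, removal of shared barcodes and adding E13 MIA replicate 1 to the gene tests were chosen after the data were seen. Same-numbered libraries deviated together in Hmox1-low cells at E15, less so in members and not in every pair at E13, so tests of MIA are also given with that term. Ahsp and Clec7a were not analysed here. Hspa1a with Hspa1b, Ftl1 with Ftl1-ps1 and the adult globins are near copies, whose reads counting can split. Some genes are not reported here by name.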

Additional observations from a re-analysis of the deposited data

Results flagged for a closer look

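Genes whose response to MIA at E15 differed between Hmox1-high and Hmox1-low cells by a test of the difference itself (edgeR interaction) numbered 7. The log2 differences were -10.15 for Ifit1, 9.17 for Hbb-y, -5.40 for Ccl5, -4.66 for Mt3, -2.49 for Ifit3, -1.65 for Lgals3 and -1.59 for Nfib. Without E15 MIA replicate 1 none of these 7 passed, and DESeq2 called 0.

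Genes whose difference between Hmox1-high and Hmox1-low cells changed from E13 to E15 numbered 68 by the same kind of test, with Hmox1 and Ube2c, which the rule used, among them. The 20 of largest size that passed were Mfap2 (-3.76), Ccl2 (-2.29), Ccdc163 (-2.02), Ccl12 (-1.76), Fabp5 (1.54), Srxn1 (1.53), Adgrg1 (-1.51), Ly9 (1.39), Atad5 (-1.34), Pid1 (-1.32), Lpl (1.26), Angptl4 (1.26), Sox11 (-1.17), Lgals1 (1.13), Gsr (1.01), Gclc (1.01), Fabp3 (0.99), Numb (-0.97), Cstb (0.94) and Mt1 (0.94). Of the 66 such genes outside the rule, 25 passed whichever library was left out, and Ccl2, Ccl12, Sox11 and Fabp3 were not among these 25.

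At P14, which the comparisons do not use, 37 cells met the rule, and their shares of microglia had a mean of 0.139% ± 0.0975 (SD, n = 4) after saline and 0.0939% ± 0.0184 (n = 2) after MIA. Pooled over the 6 libraries, these cells had 276 CPM of Gclm against 46.8 CPM in Hmox1-low cells. Slc40a1 was at 405 against 159 CPM and Ftl1 at 15539 against 1874 CPM. Of these 37 cells 25 (67.6%) carried a barcode kept in more than 1 library, against 4.14% of all kept P14 barcodes. Without such barcodes 12 cells remained, with shares of 0.0498% ± 0.0197 (n = 4) after saline and 0.0310% ± 0.0438 (n = 2) after MIA, and with 307 against 47.1 CPM of Gclm, 598 against 161 CPM of Slc40a1 and 18000.3 against 1779 CPM of Ftl1. These sums rest on few cells and were not tested.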

How the results depend on the processing

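The differences in share between MIA and saline stayed short of the threshold under all alternatives, which 3 libraries against 3 at E13 and at E15 could not have passed. With a library left out they ranged from -0.0379 to 1.52 points at E13, 0.0678 to 0.4998 at E15 and 0.134 to 0.914 over both ages, and the age difference from -1.07 to -0.256. The age difference was 0.453 with at least 20 Hmox1 UMIs per 10000, 0.843 with at least 5 UMIs and -2.77 with members plus Hmox1-low cells as the denominator. Against Hmox1-low cells, 120 genes were higher and 225 lower at 20 per 10000, 101 and 211 at 5 UMIs, and 221 were lower than in cells with 0 Hmox1 UMIs. Leaving out a library gave 65 to 101 higher and 79 to 158 lower. Srxn1 had a log2 ratio of 3.62 with a pseudocount of 5 CPM. With no filter on low counts the calls were 22 for MIA at E15, 4 at E13, 15 for their difference, 187 for age after saline, 26 for state by treatment and 137 for state by age. DESeq2 called 37 for age after saline, 242 for age, 0 for state by treatment and 109 for state by age. At 20 per 10000 there was 1 call for MIA at E15, 35 for age after saline and 28 for state by treatment. At that limit E13 MIA kept 1 library, so tests that need that group were not run. With only the contrast's groups in the model, 1 gene passed for MIA at E15, and without shared barcodes 5 passed there and 11 for state by treatment, which had 4 after thinning. Leaving out a library gave 0 to 3 for MIA at E15, 4 to 94 for age after saline, 98 to 539 for age, 0 to 39 for state by treatment and 39 to 354 for state by age. Where this left E13 MIA with 1 library, that library was assumed to vary like the other groups. The causes of these shifts were not tested.

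Deviations of same-numbered saline and MIA libraries correlated in members by 0.334, 0.0527 and 0.252 at E15 and -0.0666 and -0.0225 at E13, and in Hmox1-low cells by 0.613, 0.206 and 0.630 at E15 and 0.114, 0.0132 and 0.300 at E13, so a pairing of the E15 libraries cannot be set aside. With a replicate block 6 genes passed for MIA at E15, 3 at E13, 3 for their difference, 72 for age after saline and 447 for age. The interactions with the state already held the library as a block.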

Other observations

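Cells with at least 20 UMIs of Ccl3 plus Ccl4 per 10000 were found among both kinds of microglia, with 41 among the 969 Hmox1-high cells. In these 41, pooled Slc40a1 was 505 CPM and Gclm 651 CPM, against 119 and 33.4 CPM in the 561 such cells with less Hmox1.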
